A study of Mus musculus with 6 samples.

Results

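The genes of the proteasome were followed in mouse Th17 cells, the helper T cells that make interleukin 17, after editing of Sirt2, the gene of a protein deacetylase, and in control cells. Members were all genes in the deposited gene table whose symbol has the form Psma, Psmb, Psmc, Psmd, Psme or Psmf followed by a number and any further letters. The rule found 46 of 24182 genes. Of these, 45 are named subunits or regulators of the proteasome, and the remaining one, Psmc3ip, is a cofactor of meiotic recombination that shares only the start of its name. The 3 Sirt2 KO libraries came from Th17 cells edited with CRISPR/Cas9 at Sirt2, and the 3 Sirt2 WT libraries from control Th17 cells. All 6 cultures had received 72 hours of stimulation with antibodies to CD3 at 0.5 μg/mL and to CD28 at 1 μg/mL, which stand in for antigen and costimulation, and were otherwise labelled untreated. The labels do not give the strain, age, guide, control construct or number of mice, so p-values cover only how far these libraries scatter, and that scatter may be technical.

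The 26S proteasome degrades proteins tagged with ubiquitin. Its 20S core is a barrel of outer alpha rings and inner beta rings, with the protease sites on Psmb5, Psmb6 and Psmb7. A 19S cap recognises tagged substrates, unfolds them with a ring of ATPases and feeds them into the barrel. Lymphocytes and cells exposed to interferon gamma also make the immunoproteasome, in which Psmb8, Psmb9 and Psmb10 replace Psmb5, Psmb6 and Psmb7 and which is often capped by the 11S activator of Psme1 and Psme2; it is best known for cutting peptides for MHC class I molecules.

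Values are FPKM, fragments counted relative to transcript length and to all mapped fragments, as deposited. The files used give no read counts, so the depth of each library is unknown. Gene FPKM summed to between 303772 and 321734 per library. Sirt2 itself had 11.2, 13.5 and 10.9 FPKM in KO replicates 1, 2 and 3, against 20.7, 19.9 and 21.9 FPKM in WT replicates 1, 2 and 3. The groups did not overlap, and the log2 fold change of KO over WT was -0.76 with an adjusted p of 0.0429 in limma. That call was lost under 9 alternatives, with adjusted p-values of 0.052 to 0.376 in limma, among them those that left out KO replicate 1 or any WT library. T cell and Th17 markers were present in every library, with sums between 582 and 775 FPKM in KO and between 723 and 769 FPKM in WT. KO replicate 3 stood apart from the other KO libraries: its mean correlation with them was 0.9801, and with the WT libraries 0.9899. Results that rest on it are given with and without it.

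With all 6 libraries, 0 of the 44 members tested passed an adjusted p of 0.05, against 0.11% of all 10873 genes tested. The test was limma on log2(FPKM + 1), with Benjamini-Hochberg adjustment over all genes that reached 1 FPKM in at least 3 libraries. The only members with every KO library above every WT library were Psme1 and Psme2, the subunits of the 11S activator. Most standard 20S and 19S genes were above the WT mean in KO replicates 1 and 2 and below it in KO replicate 3. Without KO replicate 3, 7 of 44 members rose, among them Psme2, Psmb10 and 5 standard subunits, and 0 fell; over all 10726 genes then tested, 4.0% rose and 6.14% fell.

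Both members left untested are 20S subunits of other tissues. Psma8, the alpha subunit of the testis, lay between 0.031 and 0.099 FPKM in the 6 libraries. Psmb11, the catalytic subunit of the thymic cortex, was listed at 0 in 5 libraries and at 0.018 FPKM in WT replicate 3. Neither was near the filter of 1 FPKM.

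The alpha ring of the 20S core, which gates entry to the barrel, is encoded by Psma1 to Psma7. All 7 genes were tested, 0 passed with all libraries and 1, Psma6, rose without KO replicate 3. Psma6 had 241, 239 and 180 FPKM in KO replicates 1, 2 and 3, against 183, 197 and 210 FPKM in WT replicates 1, 2 and 3. KO replicates 1 and 2 were the highest of the 6 libraries and KO replicate 3 the lowest, so the groups overlapped. On the log2 scale KO differed from WT by 0.15 (95% interval -0.13 to 0.43; adjusted p 0.870 in limma) with all libraries and 0.29 (0.14 to 0.44; adjusted p 0.0374 in limma) without KO replicate 3. Psma3, the lowest of the ring, had 41.1, 40.6 and 33.4 FPKM in KO, against 34.0, 35.5 and 39.3 FPKM in WT. The other 6 alpha genes had log2 fold changes between 0.01 and 0.11 with all libraries. In all 7 genes KO replicate 3 was the lowest library and either KO replicate 1 or KO replicate 2 the highest.

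The standard beta ring, Psmb1 to Psmb7, showed much the same order of libraries, with KO replicate 3 the lowest for 5 of 7 genes and WT replicate 1 for Psmb1 and Psmb4. Psmb5, which carries the chymotrypsin-like site, had 166, 192 and 120 FPKM in KO replicates 1, 2 and 3, against 133, 140 and 155 FPKM in WT replicates 1, 2 and 3. Psmb6, which carries the caspase-like site, had 73.8, 78.8 and 55.5 FPKM in KO, against 61.5, 63.1 and 66.2 FPKM in WT. Psmb7, which carries the trypsin-like site, had 65.6, 65.3 and 48.8 FPKM in KO, against 50.4, 53.6 and 55.4 FPKM in WT. For each of these catalytic genes both the highest and the lowest library were KO libraries, and the WT libraries lay between them. Log2 fold changes with all libraries were 0.13 for Psmb5 (95% interval -0.24 to 0.51), 0.11 for Psmb6 (-0.18 to 0.40) and 0.16 for Psmb7 (-0.12 to 0.43).

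Without KO replicate 3, Psmb4, Psmb6 and Psmb7 rose. Their log2 fold changes were then 0.30, 0.26 and 0.30, with limma adjusted p-values of 0.0432, 0.0353 and 0.0253. Psmb5 had the largest difference of the 7, 0.32, and did not pass (limma adjusted p 0.0566). Psmb4, a structural beta subunit, had 127.6, 131.7 and 100.1 FPKM in KO replicates 1, 2 and 3, against 96.4, 105.9 and 113.3 FPKM in WT replicates 1, 2 and 3. Psmb1, the lowest of the ring by gene FPKM, had 42.6, 45.1 and 39.4 FPKM in KO, against 37.9, 40.6 and 43.2 FPKM in WT. At the other end Psmb2, another structural subunit, had a log2 fold change of 0.003 with all libraries (95% interval -0.20 to 0.21). The median over the 7 genes was 0.11 with all libraries and 0.26 without KO replicate 3, beside -0.03 and -0.04 over all genes tested.

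**Figure D1:**
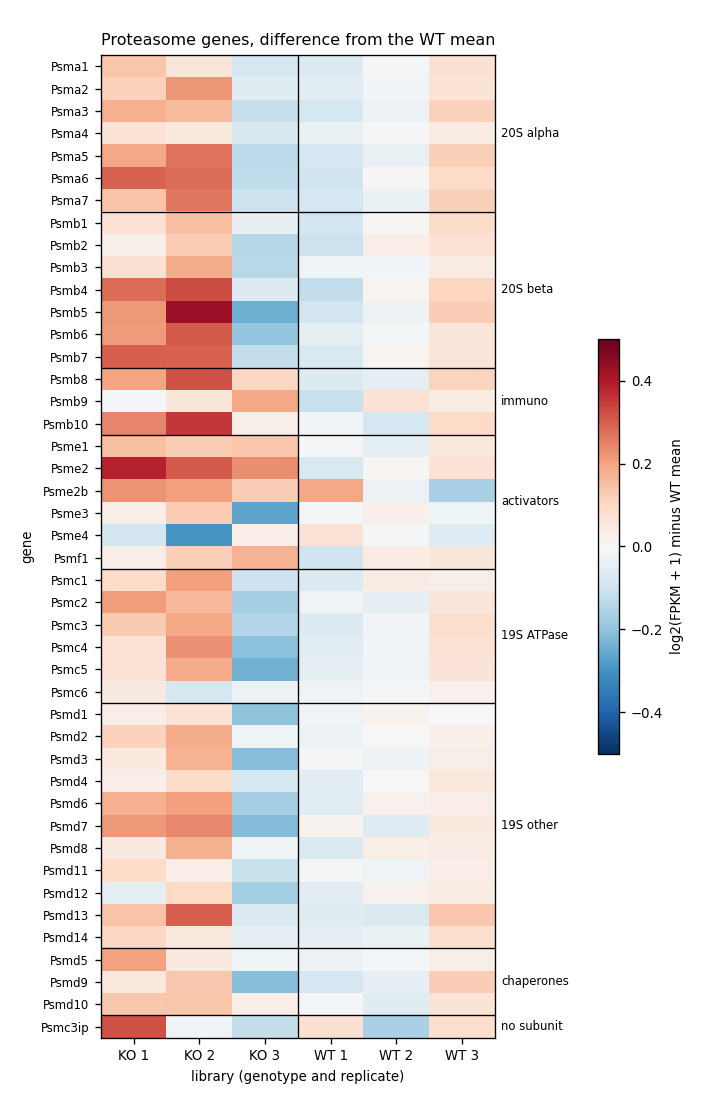
Difference of each tested member from its WT mean, in log2(FPKM + 1), for KO replicates 1 to 3 on the left and WT replicates 1 to 3 on the right. Genes run down the page by structural group; red is above and blue below the WT mean. The 31 standard 20S and 19S genes are all below the WT mean in KO replicate 3. All 5 immunoproteasome genes are above the WT mean there, as are Psme2b, Psme4, Psmf1 and Psmd10.

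With all libraries the median difference was higher for the immunoproteasome genes than for the standard beta ring; without KO replicate 3 both medians were 0.26. Psmb8, Psmb9, Psmb10, Psme1 and Psme2 had a median log2 fold change of 0.21 with all libraries and 0.26 without KO replicate 3, and 5 of 5 were positive either way. Unlike the standard subunits, all 5 lay above their WT mean in KO replicate 3 as well, where 0 of 31 standard 20S and 19S genes did. Psme2b, Psme4, Psmf1 and Psmd10 did the same, which made 9 of the 44 members tested. Over all genes tested the median difference from the WT mean in KO replicate 3 was 0.006. Psmb8 and Psmb10 were lower in KO replicate 3 than in WT replicate 3. Per library, the median difference of the 5 genes from the WT mean was 0.20, 0.31 and 0.14 in KO replicates 1, 2 and 3, against -0.07, -0.04 and 0.07 in WT replicates 1, 2 and 3. For the 31 standard genes it was 0.11, 0.19 and -0.12 in KO, against -0.06, -0.01 and 0.06 in WT.

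Psme2, the beta subunit of the 11S activator, had 54.8, 51.9 and 49.2 FPKM in KO replicates 1, 2 and 3, against 39.5, 41.9 and 44.0 FPKM in WT replicates 1, 2 and 3. Every KO library was above every WT library. The means were 52.0 ± 2.83 FPKM in KO and 41.8 ± 2.23 FPKM in WT (SD, n = 3 each). The log2 fold change was 0.31 (standard error 0.07, 95% interval 0.14 to 0.47), the largest of the 44 members tested. It did not pass with all libraries (limma adjusted p 0.543) and passed without KO replicate 3 (0.35; adjusted p 0.0228 in limma).

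Psme1, the alpha subunit of the same ring, had 66.4, 65.2 and 65.8 FPKM in KO replicates 1, 2 and 3, against 59.6, 57.7 and 62.1 FPKM in WT replicates 1, 2 and 3. These groups did not overlap either. The log2 fold change was 0.14 (95% interval 0.001 to 0.27; adjusted p 0.843 in limma), and it did not pass without KO replicate 3 (limma adjusted p 0.122). Psme1 and Psme2 were 2 of the 44 members tested, or 4.55%, whose KO libraries were all above the WT libraries, and 4.28% of all genes tested did the same, so the share of members was near that of all genes. None of the 44 had all KO libraries below all WT libraries, as 6.88% of genes did.

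Psmb8, the immunoproteasome counterpart of Psmb5, had 56.9, 62.0 and 53.1 FPKM in KO replicates 1, 2 and 3, against 47.0, 47.9 and 53.5 FPKM in WT replicates 1, 2 and 3. Only KO replicate 3 and WT replicate 3 crossed. On the log2 scale KO differed from WT by 0.21 (95% interval 0.02 to 0.40; adjusted p 0.843 in limma) with all libraries and 0.26 without KO replicate 3 (limma adjusted p 0.0606). Psmb10, the counterpart of Psmb7, had 18.9, 20.5 and 16.2 FPKM in KO, against 15.7, 14.9 and 17.0 FPKM in WT. On the log2 scale KO differed from WT by 0.21 (95% interval -0.02 to 0.44; adjusted p 0.843 in limma), and it rose without KO replicate 3 (0.30; adjusted p 0.0473 in limma).

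Psmb9, the counterpart of Psmb6, had the smallest difference of the 5 genes, with 8.92, 9.40 and 10.4 FPKM in KO replicates 1, 2 and 3, against 8.24, 9.52 and 9.26 FPKM in WT replicates 1, 2 and 3. KO replicate 3 was its highest library, and KO replicates 1 and 2 lay within the WT range. The log2 fold change was 0.08 with all libraries (95% interval -0.12 to 0.28) and 0.02 without KO replicate 3 (-0.16 to 0.21). Among the 44 members, unadjusted limma p-values were under 0.05 for 3 (6.82%), namely Psme2, Psmb8 and Psme1, against 5.61% of all genes.

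**Figure D2:**
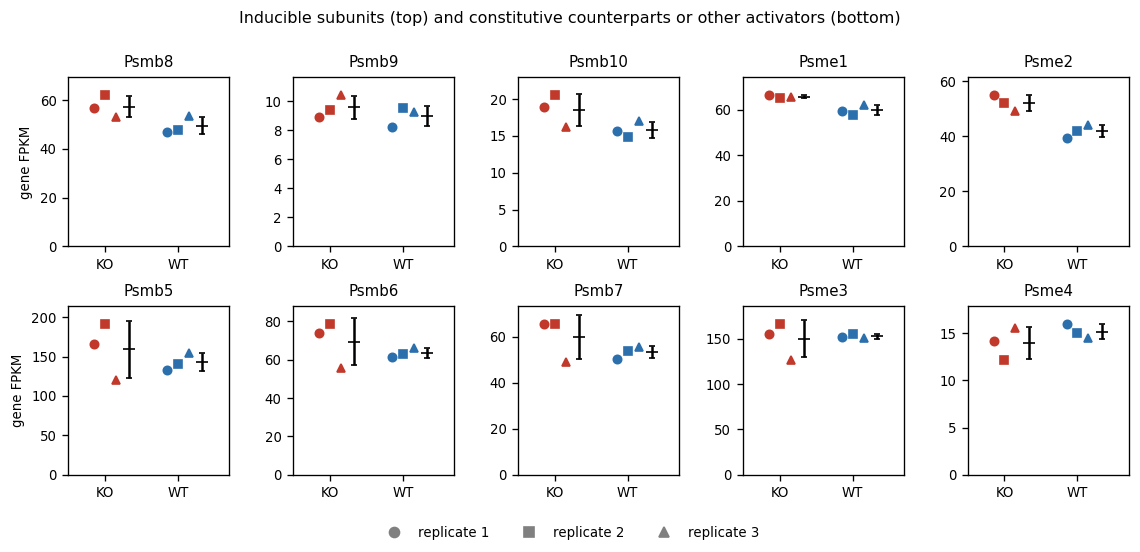
Gene FPKM per library for the 5 immunoproteasome genes (top) and for Psmb5, Psmb6, Psmb7, Psme3 and Psme4 (bottom), with KO on the left and WT on the right of each panel; marker shapes give the replicate and bars the mean and SD of 3 libraries. KO replicate 3 is the lowest library for Psmb5, Psmb6, Psmb7 and Psme3 and for none of the top genes, and Psme1 and Psme2 alone have KO points that are all above the WT points.

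Psme1 and Psme2 are neighbours in the genome, as are Psmb8 and Psmb9. The GRCm38 gene annotation places Psme1 at chr14:55578123-55581529 on the plus strand and Psme2 at chr14:55587441-55591113 on the minus strand. Psmb8 lies at chr17:34197721-34201454 on the plus strand and Psmb9 at chr17:34181987-34187764 on the minus strand, in the MHC region. The bases upstream of a RefSeq start site of each are shown because interferon gamma is known to induce these genes. The sequences are RefSeq's on build GRCm38.p6, whose coordinates match 230 of the 233 member transcripts in the deposited table. Each line gives the 250 bases before a RefSeq start site in the direction of transcription, at chr14:55578244-55578493 (plus strand), chr14:55591022-55591271 (minus strand, one of a pair of RefSeq start sites), chr17:34197945-34198194 (plus strand) and chr17:34187331-34187580 (minus strand). The deposited table starts the main coding transcripts further upstream, at 55578360 for Psme1, 55591087 for Psme2, 34197790 for Psmb8 and 34187764 for Psmb9. The windows of Psmb8 and Psmb9 therefore lie wholly inside those transcripts, and 134 bases of the Psme1 window and 66 of the Psme2 window do, so these windows do not show what lies upstream of the deposited starts. Capitals mark matches to the motifs searched.
Psme1: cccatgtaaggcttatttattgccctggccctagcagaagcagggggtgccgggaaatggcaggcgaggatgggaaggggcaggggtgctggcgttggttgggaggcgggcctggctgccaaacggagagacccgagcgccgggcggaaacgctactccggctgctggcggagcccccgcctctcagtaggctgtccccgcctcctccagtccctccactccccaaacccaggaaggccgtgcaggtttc
Psme2: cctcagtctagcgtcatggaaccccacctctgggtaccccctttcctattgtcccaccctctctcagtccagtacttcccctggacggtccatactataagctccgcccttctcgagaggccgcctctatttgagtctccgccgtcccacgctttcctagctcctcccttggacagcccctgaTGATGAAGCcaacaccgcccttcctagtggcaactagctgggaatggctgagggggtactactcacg
Psmb8: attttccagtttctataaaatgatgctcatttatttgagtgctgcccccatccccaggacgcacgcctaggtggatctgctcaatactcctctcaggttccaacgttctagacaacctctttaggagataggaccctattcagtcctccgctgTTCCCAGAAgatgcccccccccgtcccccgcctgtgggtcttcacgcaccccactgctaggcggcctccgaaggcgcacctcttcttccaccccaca
Psmb9: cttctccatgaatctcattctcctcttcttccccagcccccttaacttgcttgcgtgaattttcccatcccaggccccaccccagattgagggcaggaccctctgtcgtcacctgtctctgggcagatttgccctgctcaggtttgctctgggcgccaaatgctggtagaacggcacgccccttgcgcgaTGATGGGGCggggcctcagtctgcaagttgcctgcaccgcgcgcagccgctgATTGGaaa

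The motifs, searched on both strands and allowed to overlap, were GAAA, any 2 bases and again GAAA for the interferon response element, TTCNNNGAA for the interferon gamma activated site, TGANNNNGC for the core of the antioxidant response element bound by the NFE2L factors, and CCAAT. The interferon gamma motif was found in Psmb8 as TTCCCAGAA, starting 97 bases before the RefSeq start site and so inside the deposited transcript. Among the 42 windows of the 39 members in the promoter table this was the only match, or 2.38%, against 7.02% of all 32851 windows. Psme2 held TGATGAAGC at 67 bases and Psmb9 held TGATGGGGC at 60 bases before the start. The antioxidant motif was in 38.1% of the members' windows and 35.2% of all windows. The Psme2 match began at about the deposited transcript start, and the Psmb9 match lay inside the deposited transcript. At the other RefSeq start site of Psme2, the window at chr14:55591102-55591351 held 0 matches to the motifs searched. The interferon response motif was in 7.14% of the members' windows, those of Psmb3, Psmd4 and Psmd9, and in 2.98% of all. CCAAT was in 35.7% and 33.8%, including Psmb9 as ATTGG on the other strand at 8 bases. Psme1 held none of the 4 motifs in this window, which says only that these letters are not in it.

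Whether immunoproteasome RNA changed relative to the standard counterpart was read from the ratio within each library. The log2 ratio of Psmb8 to Psmb5 gene FPKM was -1.54, -1.63 and -1.18 in KO replicates 1, 2 and 3, against -1.50, -1.55 and -1.54 in WT replicates 1, 2 and 3. That of Psmb9 to Psmb6 was -3.05, -3.07 and -2.41 in KO, against -2.90, -2.73 and -2.84 in WT. That of Psmb10 to Psmb7 was -1.79, -1.67 and -1.59 in KO, against -1.69, -1.85 and -1.70 in WT. In each pair KO replicate 3 had the highest ratio of the 6 libraries, and the other KO ratios lay below, within or just above the WT range. The mean differences of KO from WT were 0.08, -0.02 and 0.06, with exact two-sided permutation p-values of 0.9, 1.0 and 0.4. Without KO replicate 3 the difference was -0.06 for Psmb8 to Psmb5, -0.24 for Psmb9 to Psmb6 and 0.01 for Psmb10 to Psmb7.

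For the activators, the log2 ratio of Psme1 plus Psme2 to Psme3 was -0.36, -0.51 and -0.14 in KO replicates 1, 2 and 3, against -0.62, -0.64 and -0.50 in WT replicates 1, 2 and 3. KO replicate 2 and WT replicate 3 nearly coincided, with KO replicate 2 the lower, and the other KO ratios were above all WT ratios. The mean difference was 0.25, with an exact two-sided permutation p of 0.2. Over the 4 ratios tested the Benjamini-Hochberg adjusted p-values were 0.8 for this ratio and for Psmb10 to Psmb7 and 1.0 for the others, and 3 libraries against 3 cannot give an exact p below 0.1.

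Among the other activators and inhibitors, Psme3, which forms a nuclear activator ring of its own kind, had 156, 167 and 127 FPKM in KO replicates 1, 2 and 3, against 152, 155 and 150 FPKM in WT replicates 1, 2 and 3. Psme4, the large single-chain activator PA200, had 14.1, 12.2 and 15.5 FPKM in KO, against 16.0, 15.0 and 14.5 FPKM in WT. Psmf1, the inhibitor PI31, had 9.07, 9.70 and 10.1 FPKM in KO, against 8.20, 9.12 and 9.25 FPKM in WT. KO replicate 3 was thus the lowest library for Psme3, as for the 20S genes, and the highest KO library for Psme4 and Psmf1. Psme4 had the lowest log2 fold change of the members tested, -0.12 (95% interval -0.34 to 0.11), and was the only one of the 44 tested for which KO replicates 1 and 2 were both below all WT libraries, as 31.2% of all genes were. Psme3 had -0.04 (-0.27 to 0.20) and Psmf1 0.11 (-0.08 to 0.29). Psme2b, a copy of Psme2 on chromosome 11, had 31.8, 31.3 and 29.6 FPKM in KO, against 31.1, 26.5 and 24.1 FPKM in WT; reads may have been shared between Psme2 and Psme2b, so both values are uncertain.

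The ATPases of the 19S cap, Psmc1 to Psmc6, form the ring that unfolds substrates. With all libraries their log2 fold changes ran between -0.02 and 0.07, 0 of 6 passed, and 0 of 6 passed without KO replicate 3, where the median was 0.15. Psmc1, the highest of them, had 141.5, 153.0 and 123.4 FPKM in KO replicates 1, 2 and 3, against 126.5, 136.2 and 135.4 FPKM in WT replicates 1, 2 and 3. Psmc2 had 41.8, 40.4 and 32.0 FPKM in KO, against 35.6, 35.0 and 37.7 FPKM in WT. Psmc6 was the exception to the order of libraries, with 63.1, 57.5 and 59.8 FPKM in KO, against 60.4, 60.8 and 62.1 FPKM in WT. KO replicate 3 was the lowest library for the other 5 ATPases and KO replicate 2 for Psmc6.

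The 11 non-ATPase subunits of the cap include the ubiquitin receptor Psmd4, the deubiquitinase Psmd14 and the scaffolds Psmd1 and Psmd2. Their median log2 fold change was 0.04 with all libraries, where 0 of 11 passed, and 0.11 without KO replicate 3, where 1 rose. That gene was Psmd7, the partner of Psmd14 in the lid, with 118.9, 120.9 and 87.9 FPKM in KO replicates 1, 2 and 3, against 103.5, 97.7 and 105.6 FPKM in WT replicates 1, 2 and 3. KO replicates 1 and 2 were above all WT libraries and KO replicate 3 below all of them. On the log2 scale KO differed from WT by 0.08 with all libraries and 0.23 without KO replicate 3 (limma adjusted p 0.0389). Psmd2 had 133, 139 and 121 FPKM in KO, against 120.1, 122.5 and 124.6 FPKM in WT. Psmd11, a lid subunit, had 24.1, 23.1 and 20.8 FPKM in KO, against 22.4, 22.2 and 23.1 FPKM in WT.

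At the low end of the 19S group, Psmd12, another lid subunit, had 66.0, 73.1 and 60.5 FPKM in KO replicates 1, 2 and 3, against 65.5, 69.2 and 69.9 FPKM in WT replicates 1, 2 and 3, a log2 fold change of -0.04. Psmd1 had 51.5, 52.9 and 43.6 FPKM in KO, against 49.7, 50.9 and 50.4 FPKM in WT, which is a log2 difference of -0.03. Both were positive without KO replicate 3, at 0.03 and 0.05. The chaperones that assemble the cap and leave it, Psmd5, Psmd9 and Psmd10, had log2 fold changes of 0.08, -0.01 and 0.10, and 0 of 3 passed with or without KO replicate 3. Psmd10, the highest of them, had 24.8, 24.9 and 23.1 FPKM in KO, against 22.5, 21.6 and 23.7 FPKM in WT. Psmd9, the lowest, had 4.68, 5.02 and 3.73 FPKM in KO, against 4.17, 4.33 and 4.97 FPKM in WT. Psmc3ip, which is no subunit, had 10.01, 7.74 and 7.14 FPKM in KO, against 8.31, 6.89 and 8.37 FPKM in WT.

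Over all 44 members tested, 38 (86.4%) had a positive log2 fold change, against 41.3% of all genes, and the median was 0.07 against -0.03. The highest upper bound of any member's 95% interval was 0.51, for Psmb5, and the lowest lower bound was -0.34, for Psme4. The spread within KO was wider than within WT for 40 of 44 members, as it was for 78.4% of all genes. The median SD of log2(FPKM + 1) over members was 0.160 in KO and 0.067 in WT. In KO replicates 1 and 2 together, 32 of 44 members (72.7%) were above all WT libraries, against 18.9% of all genes. Of the 31 standard 20S and 19S genes, 30 were above their WT mean in KO replicate 1, 30 in KO replicate 2 and 0 in KO replicate 3, which was the lowest of the 6 libraries for 24 of them.

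**Figure D3:**
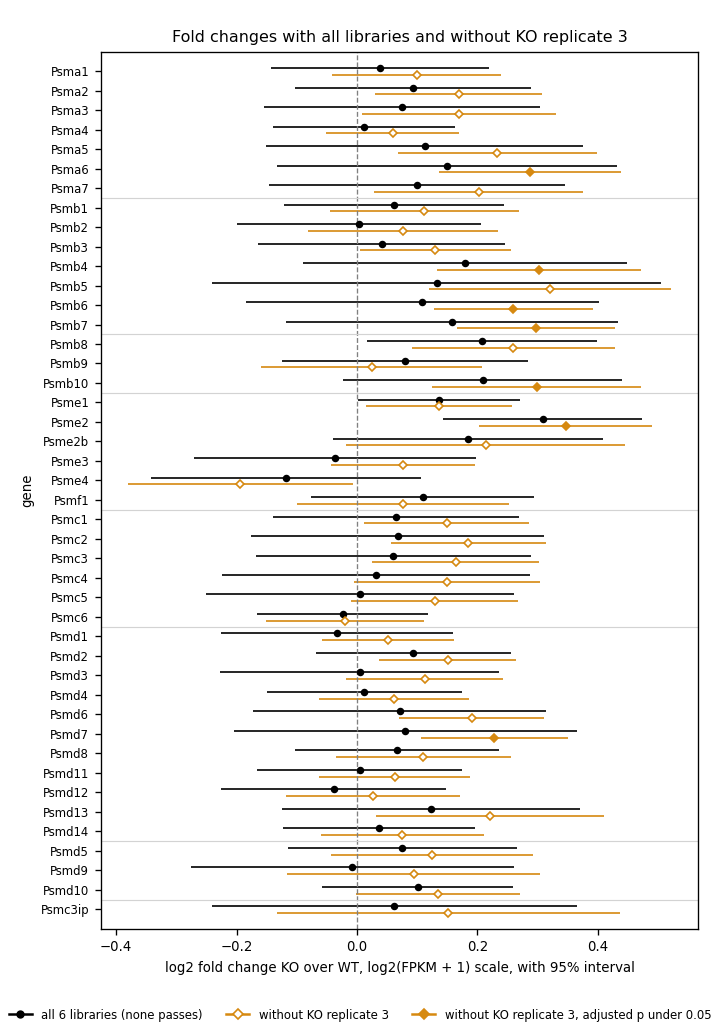
Log2 fold change of KO over WT with its 95% interval for each tested member, on the log2(FPKM + 1) scale, with all 6 libraries (black circles) and without KO replicate 3 (orange diamonds, filled where the adjusted p was under 0.05). No black interval belongs to a member that passed, and 7 diamonds are filled; 42 of the 44 diamonds are to the right of 0, where 41.7% of all genes lie without that library.

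The share of a library in proteasome RNA moved in the same way. Members took 1.03%, 1.04% and 0.885% of all gene FPKM in KO replicates 1, 2 and 3, against 0.928%, 0.956% and 0.985% in WT replicates 1, 2 and 3. A length-related difference moved with it. Across 10869 genes with a length, Spearman's rho between transcript length and the difference from the WT mean was -0.331, -0.466 and 0.229 in KO, against 0.251, 0.007 and -0.240 in WT; genes are not independent replicates. The 3 libraries with the highest shares of members were the 3 in which shorter genes were higher. Members are short, with a median transcript length of 1482 bases against 2540 bases over all genes tested, and 36 of 44 are shorter than that median.

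With trends in length and GC content removed from every library, 0 of 44 members passed, against 0.129% of genes. The median over members was then 0.06 and over all genes 0.004. With these trends removed and KO replicate 3 left out, a combination chosen after the data were seen, 10 of 44 members rose and 0 fell, against 6.01% of genes that rose and 3.67% that fell. The 10 were Psme2, Psmb8, Psmb4, Psmb6, Psmb7, Psma6, Psmc2, Psmd2, Psmd5 and Psmd7. Without KO replicate 3 and with no such correction, the members that rose were Psme2, Psmb10, Psmb4, Psmb6, Psmb7, Psma6 and Psmd7. On FPKM summed over transcripts, 0 of 44 members passed with all libraries, against 0.167% of genes. Without KO replicate 3, 8 rose and 0 fell on these sums, against 3.67% of genes that rose and 6.14% that fell. In bulk RNA, fewer cells of a type and less RNA per cell cannot be told apart.

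Markers of other cells also differed between the groups. Of 10 myeloid and dendritic genes, 6 were higher in every KO library than in every WT library, and the list lay between 40.0 and 41.2 FPKM in KO and between 30.4 and 31.6 FPKM in WT when summed. Most of that sum was Ctss, with 28.4, 26.3 and 31.4 FPKM in KO, against 26.6, 28.0 and 28.4 FPKM in WT. Lyz2 had 8.31, 9.44 and 4.24 FPKM in KO replicates 1, 2 and 3, against 1.38, 1.03 and 0.782 FPKM in WT replicates 1, 2 and 3, while Cd14 reached at most 1.49 FPKM in KO and 0.121 FPKM in WT. Of 5 measured CD8 and NK genes, 2 were higher in every KO library (sums between 7.04 and 11.7 FPKM in KO and between 6.21 and 6.89 FPKM in WT), as were 2 of 6 B cell genes (between 1.25 and 2.29 FPKM in KO and between 0.774 and 1.07 FPKM in WT). Erythroid and stromal genes had sums between 0.089 and 0.172 FPKM in KO and between 0.043 and 1.24 FPKM in WT. Of 5 nuclear RNAs, Malat1 alone was lower in every KO library, and their sum was between 10.4 and 24.8 FPKM in KO and between 22.7 and 32.4 FPKM in WT. With trends in length and GC content removed, the log2 fold changes of Psme2, Psmb8, Psmb10 and Psme1 were 0.27, 0.19, 0.18 and 0.10. Myeloid cells express the immunoproteasome too. Beyond that fit, the part of these cells, of gene length and of RNA quality in the differences of these genes was not tested.

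Subunits present in equal numbers in the particle did not have equal RNA levels. The deposited gene value equals the transcripts' FPKM, weighted by transcript length, divided by the length of all its exons combined, within 0.1% for 36 of 44 members that could be checked, so it is lower for genes with long alternative exons. Levels of different genes are therefore compared on FPKM summed over transcripts. On that scale the alpha ring ran between Psma6 at 247 FPKM and Psma3 at 75.0 FPKM (mean of 6 libraries), a ratio of 3.29, where the gene value gives 5.58. Coding transcripts held only 43.0% to 47.7% of the Psma3 sum and at least 99.3% of the Psma6 sum. On coding RNA alone the range was therefore wider than on the sums. The standard beta ring ran between Psmb3 at 222.8 FPKM and Psmb1 at 106.2 FPKM, a ratio of 2.10, and the ATPases between Psmc1 at 167.7 FPKM and Psmc6 at 96.6 FPKM, a ratio of 1.74. The non-ATPases ran between Psmd8 at 184.6 FPKM and Psmd11 at 60.5 FPKM, a ratio of 3.05.

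On this summed scale the immunoproteasome catalytic genes were less even, between Psmb8 at 123.0 FPKM and Psmb9 at 23.82 FPKM, a ratio of 5.165. That range includes the retained-intron transcripts of Psmb8. The main coding transcripts lay closer together. Their means in KO and WT were 39.2 and 42.02 FPKM for Psmb8, 22.84 and 19.97 FPKM for Psmb9, and 20.63 and 18.25 FPKM for Psmb10. On main coding transcripts the alpha ring was less even than these genes. Its means in KO and WT were 260.1 and 232.8 FPKM for Psma6, and 35.39 and 33.59 FPKM for Psma3. The other standard groups were not compared in this way. Psmb8 had a summed level of 133 ± 11.4 FPKM in KO and 113 ± 10.3 FPKM in WT (SD, n = 3 each). Psmb9 had 25.0 ± 1.49 FPKM in KO and 22.6 ± 1.96 FPKM in WT, and Psmb10 had 26.5 ± 3.26 FPKM in KO and 22.9 ± 1.35 FPKM in WT. The summed ratio of Psmb8 to its counterpart Psmb5 was 0.805, 0.753 and 1.01 in KO replicates 1, 2 and 3, against 0.801, 0.764 and 0.804 in WT replicates 1, 2 and 3. Retained-intron transcripts held 51.0% to 75.4% of the Psmb8 sum and none of the Psmb5 sum. Over protein-coding transcripts alone the ratio was 0.254, 0.185 and 0.36 in KO, against 0.308, 0.374 and 0.253 in WT, and the groups overlapped. The ratio of Psmb9 to Psmb6 was between 0.13 and 0.205 in KO and between 0.142 and 0.165 in WT, and that of Psmb10 to Psmb7 between 0.146 and 0.159 in KO and between 0.137 and 0.152 in WT. Psmb9 and Psmb10 did not differ from each other beyond their spread. Among the activators, Psme3 had 167 ± 22.5 FPKM in KO and 170 ± 3.25 FPKM in WT, Psme1 135.8 ± 5.54 FPKM in KO and 121.6 ± 3.65 FPKM in WT, Psme2 100.4 ± 6.08 FPKM in KO and 79.8 ± 4.39 FPKM in WT. Psme4 had 18.3 ± 2.30 FPKM in KO and 19.8 ± 1.07 FPKM in WT, and Psmf1 16.4 ± 0.848 FPKM in KO and 15.1 ± 1.01 FPKM in WT.

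**Figure D4:**
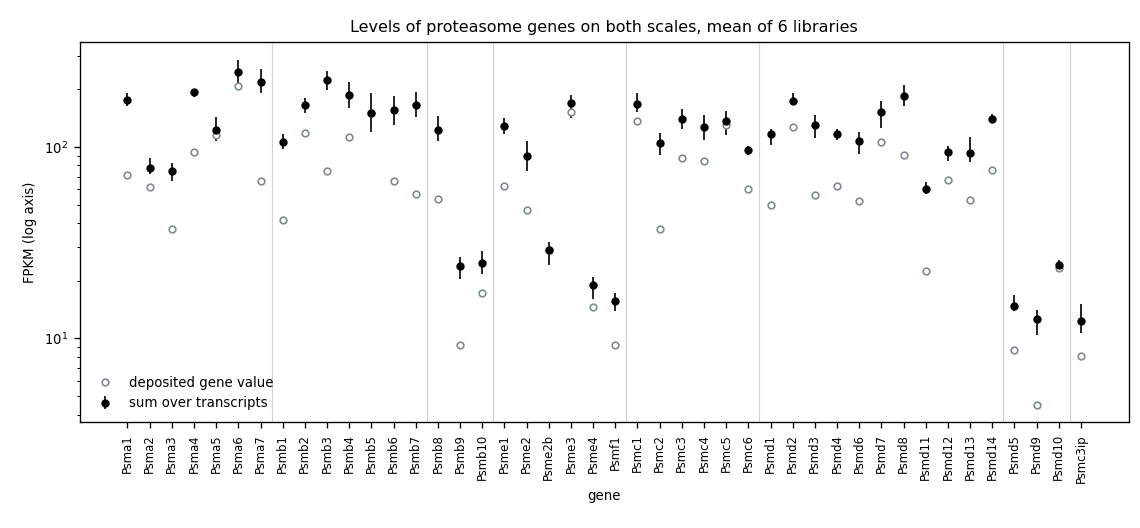
Level of each tested member as FPKM summed over its transcripts (filled, mean and range of 6 libraries) and as the deposited gene value (open, mean of 6 libraries), on a log axis, by structural group. Standard 20S and 19S subunits lie between 60.5 and 247 FPKM on the summed scale. The means of Psmb9, Psmb10, Psme2b, Psme4, Psmf1, Psmd5, Psmd9, Psmd10 and Psmc3ip lie below all of them.

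Transcripts gave a further view of which RNAs these levels hold. Of 233 member transcripts, 96 reached 1 FPKM in at least 3 libraries, and 0 of them passed in the transcript fit, against 0.0417% of 19184 transcripts tested. Unadjusted limma p-values were under 0.05 for 5 member transcripts, against 5.57% of all transcripts, and the adjusted p-values of these 5 lay at 0.62 or above. In 35 of 46 members at least 90% of the transcript FPKM was in protein-coding transcripts in every library where the gene was above 0. Psmb11 was among them on WT replicate 3 alone. Psmb8 was an exception: retained-intron transcripts made up 68.4%, 75.4% and 64.4% of its FPKM in KO replicates 1, 2 and 3, against 61.6%, 51.0% and 68.6% in WT replicates 1, 2 and 3. The groups overlapped. Its main coding transcript, ENSMUST00000025196, had 40.5, 35.4 and 41.7 FPKM in KO, against 41.0, 49.9 and 35.2 FPKM in WT, so the higher Psmb8 gene level in KO was not seen in that transcript.

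Psma3 also held under 50% of its FPKM in coding transcripts, 44.4% to 47.3% in KO and 43.0% to 47.7% in WT, with the rest mostly in transcripts annotated for nonsense-mediated decay. The main coding transcript of Psme2, ENSMUST00000161807, had 88.4, 88.8 and 80.7 FPKM in KO replicates 1, 2 and 3, against 67.3, 68.1 and 78.8 FPKM in WT replicates 1, 2 and 3. Its KO libraries were all above its WT libraries, as at the gene level, with a log2 fold change of 0.27 (95% interval 0.05 to 0.48; adjusted p 0.828 in limma). Transcript levels were estimated from reads that transcripts share, and no count of reads unique to one was used here.

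A transcript of Psmd11, a retained-intron form named ENSMUST00000147898, had 0, 0.649 and 18.6 FPKM in KO replicates 1, 2 and 3, against 16.4, 22.6 and 21.2 FPKM in WT replicates 1, 2 and 3. KO replicate 3 lay with the WT libraries and the other KO libraries at or near 0, while the gene value of Psmd11 had a log2 fold change of 0.005. That transcript had a log2 fold change of -2.71 and did not pass (limma adjusted p 0.885). In Psmd8 a coding transcript was higher in KO and another lower, and neither passed. ENSMUST00000182328 had 194, 180 and 139 FPKM in KO, against 104, 123 and 109 FPKM in WT, and ENSMUST00000209034 had 1.32, 26.2 and 33.6 FPKM in KO, against 54.9, 50.2 and 60.3 FPKM in WT. For both transcripts the groups did not overlap, and the share of all transcripts without overlap is not given here. The first had a log2 fold change of 0.60 (95% interval 0.25 to 0.95), with an adjusted p of 0.620 in limma. The second had -2.11 (95% interval -4.64 to 0.42), with an adjusted p of 0.894 in limma. Psmc2 had a coding transcript, ENSMUST00000239497, at 21.4, 12.1 and 20.1 FPKM in KO, against 26.9, 36.1 and 33.0 FPKM in WT (log2 fold change -0.84; adjusted p 0.767 in limma). The main coding transcript of Psmc2, ENSMUST00000030769, went the other way. It had 96.4, 101.8 and 70.0 FPKM in KO, against 73.4, 62.65 and 73.3 FPKM in WT (log2 fold change 0.34, adjusted p 0.891 in limma). These transcripts are 1775 and 1785 bases long, and the gene value of Psmc2 had a log2 fold change of 0.07.

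Genes that build, feed or control the proteasome were read from 6 lists of 48 genes, all of which were tested. With all libraries 0 of 48 passed in limma, and 2, Psmg3 and Rps27a, had an unadjusted p under 0.05. Leaving out KO replicate 3 gave 5 of 48 that passed (10.4%), near the 10.1% of all genes, among them Psmg3, Sem1 and Rps27a, which rose, and Nlrc5, which fell. Psmg3, a chaperone that pairs alpha subunits during 20S assembly, had 11.5, 11.1 and 7.92 FPKM in KO replicates 1, 2 and 3, against 7.47, 7.67 and 8.51 FPKM in WT replicates 1, 2 and 3. Its list of assembly chaperones, with Psmg1, Psmg2, Psmg4 and Pomp, had 5 of 5 positive values and a median log2 fold change of 0.12. Sem1, a small lid subunit outside the naming rule, had 19.9, 20.4 and 15.1 FPKM in KO, against 14.9, 16.2 and 15.3 FPKM in WT. In both genes KO replicates 1 and 2 were above all WT libraries and KO replicate 3 was within the WT range.

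The list of regulators, with the NFE2L1 and NFE2L2 pathway and the interferon pathway, had a median log2 fold change of -0.07 with all libraries. Nlrc5, a transactivator of MHC class I genes, had 2.34, 2.17 and 3.91 FPKM in KO replicates 1, 2 and 3, against 3.28, 3.06 and 3.24 FPKM in WT replicates 1, 2 and 3. KO replicates 1 and 2 were below all WT libraries and KO replicate 3 above them. Psme1, Psme2, Psmb8 and Psmb10 were above their WT mean in all 3 KO libraries. Psmb9 was just below its WT mean in KO replicate 1 (-0.01) and, like Nlrc5, highest in KO replicate 3. A link between Nlrc5 and these genes was not tested.

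The shuttle factors that carry tagged proteins to the proteasome had a median of -0.03, and 0 of 8 passed; Ubqln1 had 48.3, 47.7 and 48.2 FPKM in KO, against 50.1, 50.7 and 50.4 FPKM in WT. Factors bound to the proteasome had a median of -0.001 over 8 genes. In the ubiquitin supply list, whose median was 0.03 over 9 genes, Rps27a, a ribosomal protein fused to ubiquitin, had 433, 436 and 370 FPKM in KO, against 345, 364 and 367 FPKM in WT. MHC class I genes for peptide transport and loading had a median of 0.04 over 11 genes, and 0 of 11 passed with or without KO replicate 3. Tapbpl, a peptide editor, had 18.8, 15.5 and 20.1 FPKM in KO, against 14.8, 15.0 and 16.6 FPKM in WT, which is a log2 difference of 0.21 (limma adjusted p 0.843).

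The authors' deposited table gives a comparison of the same libraries. The authors' deposited table has 102 of 24182 genes with a q-value under 0.05, of which 0 are members. The smallest q-value of a member in the authors' deposited table was 0.121, for Psme2. In the same comparison by the authors 3 of 46 members had a p-value under 0.05 and 38 had a fold above 1. The shares of all genes that did so are not given here, so neither count is read as a result about the members.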

How the data were processed

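RNA-seq of 3 Sirt2 KO and 3 Sirt2 WT Th17 libraries was analysed. Per the submitters' processing notes, the tools included cutadapt, FastQC, HISAT2, StringTie, DESeq2 and edgeR; the genome named there is mm9, but member coordinates match GRCm38. The authors deposited gene and transcript FPKM, and per the file headers also a fold (ratio), a log2 fold change, a p-value and a q-value per gene. Read counts were not used here, so depth is unknown and no count test was run.

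Gene values, as log2(FPKM + 1), entered limma (version 3.58.1, R version 4.3.3; mean trend, no block), with Benjamini-Hochberg adjustment over genes reaching 1 FPKM in 3 or more of 6 libraries. A pseudocount of 1 understates changes of low genes. Ratios were tested by exact permutation. Members and lists were chosen with earlier results of these data known. Values per library are given for Psmb5 to Psmb10, Psme1 to Psme4, Psmf1, members that passed, the 5 highest and 5 lowest fold changes, the extremes of each structural group, and up to 3 genes of each list by p; the transcripts of Psmd8, the retained-intron transcript of Psmd11, Nlrc5 and single marker genes were named after their values were seen. Alternatives varied the scaling, filter, pseudocount, trend, block, length and GC trends and libraries. The values of 1 list gene are not reported here.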

Additional observations from a re-analysis of the deposited data

How the results depend on the processing

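Under every alternative that kept all libraries, 0 of the members tested passed; leaving out 1 library at a time gave 0 to 7 members, and KO replicate 3 was the only library whose removal gave any. Its removal gave 10 members with length and GC trends removed and 8 on transcript sums, both chosen after the data were seen. Genes passing numbered 12, against 5 with a filter at 5 FPKM, 19 on transcript sums and 0 to 1088 with 1 library left out (0 without KO replicate 1, 1088 without KO replicate 3). List genes passing ranged between 0 and 5 (5 without KO replicate 3). Transcripts passing numbered 8, against 4 with no filter, 25 with no mean trend, 3 with the replicate block and 1 to 6 with 1 library left out (1 without WT replicate 1, 2 or 3, and 4 without KO replicate 2). Whether the replicate numbers pair the libraries is unknown, as the labels do not say. Correlations of same-numbered deviations were 0.007, -0.017 and -0.076, which cannot decide it with 3 libraries per group. The replicate block gave 13 genes and 0 members. The median of the 11S and other activators was 0.16 under median scaling and 0.10 to 0.14 with 1 library left out (0.10 without WT replicate 1). The KO minus WT difference in the log2 ratio of Psmb9 to Psmb6 was 0.0355 on transcript sums and -0.2356 to 0.0916 with 1 library left out, positive without KO replicate 1 or 2 or WT replicate 2. That of Psmb8 to Psmb5 was -0.058 to 0.1681, negative without KO replicate 3. Log2 fold changes near 0 changed sign under at least 1 alternative for 19 members. For 10 of these, those covered by the rule for named genes, they ran with 1 library left out between -0.0304 and 0.1302 for Psmb3, -0.0142 and 0.3204 for Psmb5, -0.0054 and 0.1486 for Psmc1, -0.0027 and 0.1845 for Psmc2, -0.0588 and 0.008 for Psmc6, -0.0849 and 0.0511 for Psmd1, -0.0382 and 0.0623 for Psmd11, -0.1074 and 0.0266 for Psmd12, -0.0799 and 0.0943 for Psmd9, and -0.1174 and 0.0763 for Psme3, with an end set by KO replicate 3 for each but Psmc6. Median scaling gave 0.0178 for Psmc6, 0.0084 for Psmd1, 0.0031 for Psmd12, 0.0275 for Psmd9 and 0.0055 for Psme3. Removing length and GC trends gave -0.0054 for Psmb3, 0.0289 for Psmc6, 0.0132 for Psmd1 and 0.0083 for Psmd9. Sirt2 lost its call under 9 alternatives (adjusted p 0.052 to 0.376), among them those without KO replicate 1 or WT replicate 1, 2 or 3. The cause of these changes was not tested.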
